A study of Homo sapiens with 32 samples.

Results

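The protocadherins were taken as every gene with deposited values whose symbol begins with PCDH, and 66 of the 18583 genes with values met this rule. They comprised 15 PCDHA, 16 PCDHB and 22 PCDHG genes, which lie in 3 clusters on chromosome 5, and 13 single genes that lie outside the clusters. A further 10 PCDH entries carried no values. One single member is Y-linked and was counted, but its level is not described.

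RNA was sequenced from HGrC1, an established immortalized granulosa line of human origin. Granulosa cells enclose the egg in the ovarian follicle and convert androgens to oestrogens. PFOS is perfluorooctane sulfonate, a persistent fluorinated surfactant. The 8 groups of 4 libraries were vehicle control (0.05% DMSO) and PFOS at 0.01, 0.1 and 1 µM, each after 6 and after 12 weeks. All groups shared medium with 10% FBS and a steroid at 100 nM, which the labels call estradiol and the methods call testosterone. Replicates 1 to 4 were vials of the line frozen on different dates. The flask grown from each vial was divided among the 4 treatments, which were then kept in separate flasks. The p-values therefore measure the spread among cultures of 1 line, in which vial, flask and library differences are combined. A group at 12 weeks had also been passaged for longer than a group at 6 weeks, and exposure time, passage number and any difference in library preparation cannot be told apart.

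Libraries held 17907057 to 18553350 expected counts, an estimate of reads per gene that divides reads matching several genes. A library at 0 counts allows up to 3 counts, or 0.162 to 0.168 CPM (counts scaled to library size), for counting error only. All 48 pairs of replicates within a group differed by more than counting noise. Of the granulosa markers, GATA4 had a mean of 74.1 TPM, a level scaled for gene length and depth, FST of 17.5, AMH of 13.7 and FOXL2 of 0.63 TPM. NR5A1 had a mean of 0.094 and AMHR2 of 0.037 TPM, and CYP19A1, the aromatase, had a mean of 0.03 counts. Of the 12 markers listed, 11 had values, FSHR had none, and 7 had a mean of at least 1 TPM. Liver markers other than APOA1 summed to 0 or 1 counts in the 6-week control and 0.01 µM libraries and to 73 counts or more in every other library. All 12-week control libraries carried them, at 82 to 926 counts (median 102), with the highest sum in replicate 3. Of 5 liver markers tested, 4 were called higher at 12 weeks in control and at 0.01 µM, and 0 at 0.1 and 1 µM. Control results over time are given without replicate 3 where that changes a call, and leaving it out does not remove the liver signal.

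Protocadherins are cadherin-family membrane proteins that bind the same protein on a neighbouring cell. In the clusters, each variable exon has its own promoter, where CTCF and cohesin act in promoter choice and DNA methylation silences promoters, and neurons use the combinations as a cell surface identity. In the PCDHA and PCDHG clusters each variable exon is spliced to shared constant exons, while PCDHB genes stand alone. The single genes are dispersed and include PCDH1, PCDH7, PCDH10 and PCDH18.

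The annotation (GENCODE) showed what the members of a cluster share. All 15 PCDHA members held the same 3 exons of 59, 89 and 2721 bases, and all 22 PCDHG members held 3 exons of 59, 89 and 2029 bases. No exon was held by more than 1 PCDHB member. Reads from the shared exons cannot be given to a member, and 95.8% of the values of the 6 PCDHG members with a mean of at least 10 counts were not whole numbers, against 9.60% for all genes at that level. For this reason the sum over each cluster is given beside its members.

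Promoters are shown for the clustered members with the highest levels, because each member of a cluster starts from its own promoter. The windows run from 80 to 31 bases before the RefSeq start (GRCh38.p14, plus strand, 5′ to 3′). Capitals mark the letters CGCT, the core of an element of most clustered protocadherin promoters, whether or not the full element is present.
PCDHGC3, chr5:141475886-141475935: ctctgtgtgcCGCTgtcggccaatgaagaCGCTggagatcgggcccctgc
PCDHGC4, chr5:141484950-141484999: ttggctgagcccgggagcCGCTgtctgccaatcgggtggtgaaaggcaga
PCDHGA11, chr5:141420971-141421020: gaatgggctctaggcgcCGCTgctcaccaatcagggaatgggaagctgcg
PCDHGA10, chr5:141412907-141412956: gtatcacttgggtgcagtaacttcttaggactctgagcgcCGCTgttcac
PCDHGB7, chr5:141417597-141417646: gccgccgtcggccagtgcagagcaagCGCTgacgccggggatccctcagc
PCDHGB5, chr5:141397867-141397916: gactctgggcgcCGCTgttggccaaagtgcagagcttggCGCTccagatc

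A low PCDHG member, PCDHGA3, and the highest PCDHA and PCDHB members are shown for contrast in level.
PCDHGA3, chr5:141343749-141343798: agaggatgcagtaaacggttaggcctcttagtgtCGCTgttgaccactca
PCDHA4, chr5:140806988-140807037: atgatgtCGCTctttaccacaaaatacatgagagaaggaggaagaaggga
PCDHB14, chr5:141223263-141223312: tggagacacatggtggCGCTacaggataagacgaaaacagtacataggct

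The letters CGCT stood in this window, on the sense strand, in 40 of 47 clustered promoters with a RefSeq entry (85.1%). They stood in 11 of 13 PCDHA, 11 of 14 PCDHB, 18 of 20 PCDHG and 2 of 10 single promoters, and in 15.5% of all 27305 promoters. On the opposite strand, where CGCT reads AGCG, the share was 17.0% of clustered and 15.5% of all promoters. By cluster this was 0 of 13 PCDHA, 1 of 14 PCDHB and 7 of 20 PCDHG promoters. The window was chosen after the positions of the motif had been seen. Over the 250 bases before the start the shares on the sense strand were 95.7% of clustered and 47.9% of all promoters. Among the clustered members it stood in the promoters of the high PCDHG members shown and of low members such as PCDHGA3. Clustered promoters without it were those of PCDHA7, PCDHA9, PCDHB1, PCDHB5, PCDHB8, PCDHGA1 and PCDHGB2. All were low members, with PCDHGB2 highest at 0.0547 TPM. The single members PCDH1 (2.29 TPM) and PCDH7 (1.09 TPM), both above PCDHGA11, had no CGCT in this window. The 2 single members with it were PCDH18 (0.161 TPM) and PCDH19 (0.0031 TPM). Whether the letters go with level was not tested. A match is one of letters, not a measured site.

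Most protocadherins were barely detected, and the detected ones lay in a few places. Of the 66 members, 36 had a mean under 1 count, and 3 of these (PCDHA2, PCDHA12 and PCDHA13) were at 0 in every library. A mean of 1 to 10 counts was found for 20 members, and 10 reached a mean of 10 counts. These 10 were 6 PCDHG members and 4 single members, and no PCDHA or PCDHB member was among them. Of the 66 members, 14 were above 0 in all 32 libraries. The deposited annotation places the PCDHA and PCDHB genes on an alternate scaffold and the PCDHG genes on the primary chromosome 5. Whether this placement lowered the PCDHA and PCDHB counts was not tested, which limits the contrast with PCDHG.

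PCDHGC3, a C-type isoform (chr5:141475966-141512975), was the highest protocadherin, with a mean of 5.10 TPM over the 32 libraries. PCDHGC4, another C-type isoform, had a mean of 1.54 TPM, and PCDHGA11 followed at 0.689. PCDHGB7 at 0.642, PCDHGA10 at 0.383 and PCDHGB5 at 0.253 completed the PCDHG members with at least 10 counts. PCDHGA11 and PCDHGB7 had the same mean count, 34.4, and their TPM ranges, 0.37 to 1.04 and 0.33 to 0.94, overlapped.

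In the PCDHG cluster, levels were higher toward the 3′ end, although PCDHGA12 at 0.0516 TPM and PCDHGC5 at 0.0347 were low among their neighbours. The 12 members nearest the 5′ end held 4.49% of the cluster's counts (range 2.16 to 7.63% over the libraries), and the last 10 held 95.5%. This split was chosen after the values were seen. Spearman's rho of position against mean TPM was 0.62 over 22 PCDHG members, 0.51 over 16 PCDHB and -0.12 over 15 PCDHA members, which is a description across genes that share a cluster and the same libraries. The highest PCDHA members were PCDHA4 at 0.0428 TPM, PCDHAC2 at 0.0266 and PCDHA10 at 0.0159, and the highest PCDHB members were PCDHB14 at 0.0753, PCDHB13 at 0.0431 and PCDHB8 at 0.0219.

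**Figure D1:**
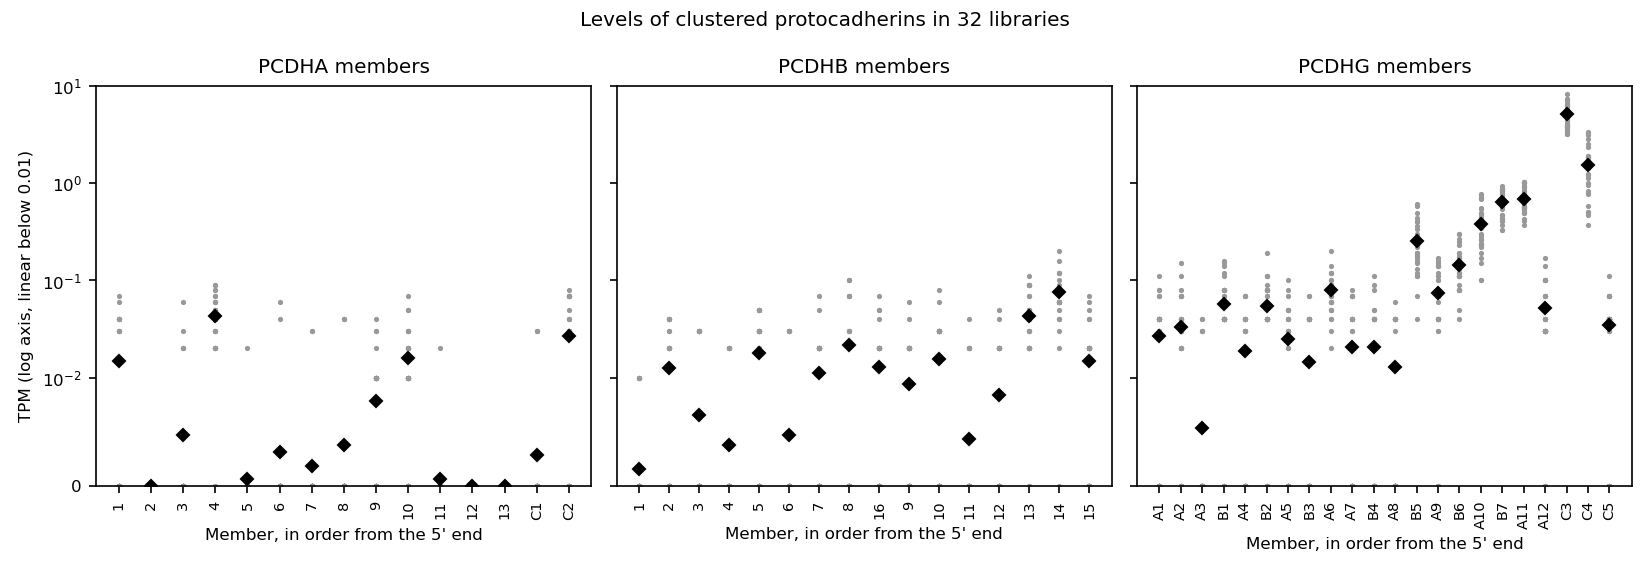
Level in TPM (log axis, linear below 0.01) of each clustered member in order from the 5′ end, with a grey point for each of the 32 libraries and a black diamond for the mean. The PCDHG members rise toward the 3′ end to PCDHGC3 at 5.10 TPM, with PCDHGA12 and PCDHGC5 low, while PCDHA and PCDHB members stay under 0.1 TPM on average.

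Of the single members, PCDH1 had a mean of 2.29 TPM (chr5:141853090-141878410, minus strand), PCDH7 of 1.09 (chr4:30720369-31146800) and PCDH10 of 1.03 (chr4:133149294-133208606). All are cell adhesion proteins, and PCDH10 also binds the actin-regulating WAVE complex. PCDH18 had a mean of 0.161 TPM and PCDH11X of 0.0653. PCDH7 and PCDH10 were close in level, and PCDH7 had the larger spread within groups, with a variance of 12.9 times its mean in counts against 2.68 for PCDH10.

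The comparison of 12 with 6 weeks, within each treatment, asked what changed with time. The PCDHG sum was lower at 12 weeks, and PCDHGC3 held 58.0% of it at 6 weeks and 57.1% at 12 weeks. Not every PCDHG member was called lower, as given below. The sum was 537, 503, 462 and 413 counts in the 6-week control libraries and 317, 312, 350 and 319 in the 12-week control libraries. Over all treatments the 16 libraries at 6 weeks lay between 413 and 601 counts (median 486) and the 16 at 12 weeks between 279 and 373 (median 320). The times did not overlap. The share of all genes that separate in this way over the 16 libraries of each time was not counted, here or for the members below.

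With the exact two-sided permutation test on log2(CPM + 1), the PCDHG sum at 12 weeks differed from that at 6 weeks by -0.53 in control, -0.54 at 0.01 µM, -0.67 at 0.1 µM and -0.58 at 1 µM. Each exact permutation p was 0.0286, the smallest that 4 against 4 libraries allow. The adjusted p over the family was 0.0686, so none passed. At this floor the PCDHG differences could not pass by their own size, because the adjusted p also depends on how many other sums reach it. In edgeR's quasi-likelihood test, with each cluster as 1 summed entry among all genes, the log2 changes were -0.56, -0.55, -0.69 and -0.61, and all passed, with adjusted p from 4.2e-08 to 2.1e-06. The sum was a whole number within 0.05 in 25 of 32 libraries, against 11 of 32 for the PCDHA sum and 32 of 32 for the PCDHB sum.

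The PCDHA sum was 4.15 to 18.9 counts at 6 weeks and 1.0 to 16.1 at 12 weeks, and the PCDHB sum 9 to 16 and 5 to 20. In control the PCDHA sum was -0.46 in log2(CPM + 1) at 12 weeks (exact permutation p = 0.0286, adjusted p = 0.0686). In edgeR's test the same difference was -1.37 (SE 0.42, adjusted p = 0.00878). These sums are a handful of counts per library.

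**Figure D2:**
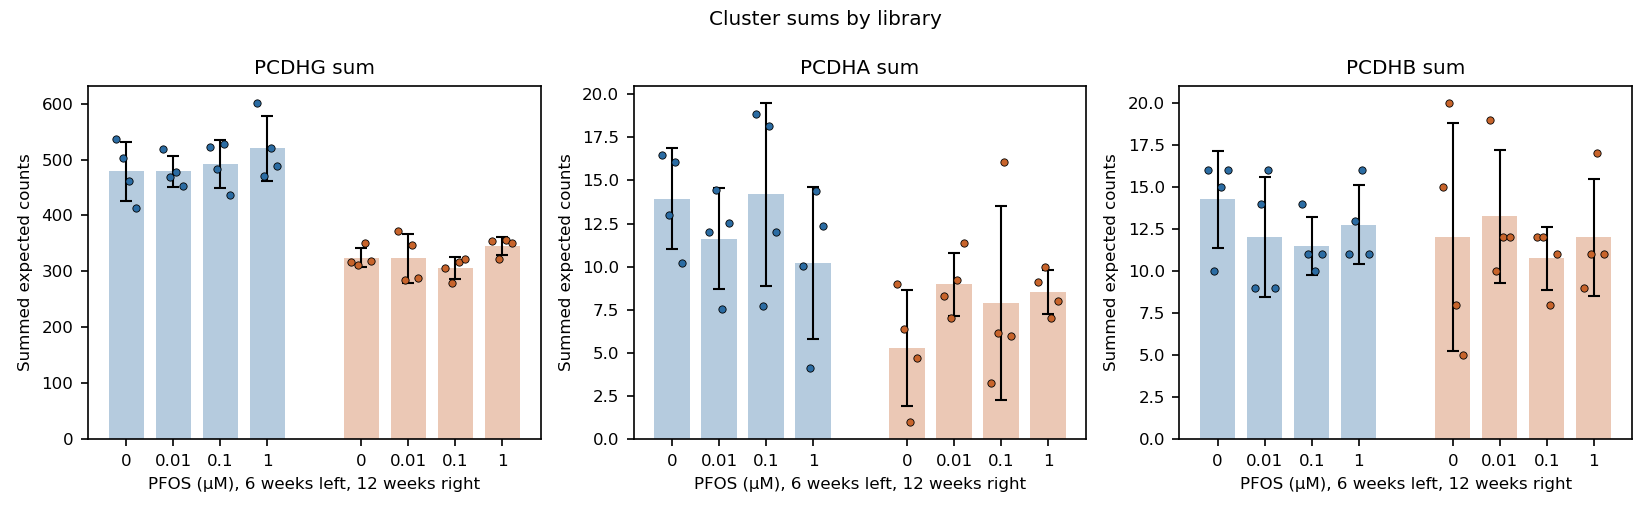
Summed expected counts of the PCDHG, PCDHA and PCDHB clusters in each library (points), with the group mean (bar) and SD (whisker), against PFOS concentration in µM at 6 weeks (blue) and 12 weeks (orange). The PCDHG sums at 6 weeks, 413 to 601, all lie above those at 12 weeks, 279 to 373, while the PCDHA and PCDHB sums overlap between times.

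Among members, 11 passed the filter on low counts and were tested with 12988 genes in edgeR. Called means an adjusted p at or under 0.05. In control 6 members were called, where 36.6% of all genes were. At 0.01, 0.1 and 1 µM the numbers were 5, 6 and 5, where 42.7%, 40.3% and 30.1% of all genes were called. The calls were lower for 5, 4, 6 and 5 members and higher for 1, 1, 0 and 0, where 19.3%, 21.3%, 20.6% and 15.9% of all genes were called lower and 17.3%, 21.4%, 19.7% and 14.2% higher. The groups did not overlap in CPM for 5, 4, 5 and 4 members, against 31.2%, 33.3%, 39.6% and 30.4% of all genes. A change of at least 2-fold was called for 4, 4, 3 and 2 members, against 3.32%, 3.49%, 3.83% and 3.09% of all genes. PCDH1, PCDH10 and PCDHGC3 were called lower in all 4 treatments, as were 9.87% of all genes, and no member was called higher in all 4, where 6.68% of genes were. The median log2 change of the tested members was -0.63, -0.55, -0.61 and -0.65, and that of all genes lay between 0.00 and 0.01.

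PCDH1 had the largest decrease. Its counts were 262, 168, 208 and 130 in the 6-week control libraries and 49, 36, 41 and 27 in the 12-week ones. Every 6-week library of every treatment, 125 to 262 counts, lay above every 12-week library, 19 to 49. The log2 change in control was -2.32 (SE 0.21, edgeR adjusted p = 1.13e-09), which is 5.00-fold lower, and it was -2.25, -2.63 and -2.20 at 0.01, 0.1 and 1 µM. The liver marker sum without APOA1 was 90 to 142 counts at 6 weeks and 95 to 156 at 12 weeks at 0.1 µM, and 88 to 116 and 93 to 175 at 1 µM. In control and at 0.01 µM it was 0 to 1 at 6 weeks and 82 to 926 and 73 to 133 at 12 weeks. Its part in the PCDH1 difference was not tested.

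PCDH10 was also lower. In the control libraries its counts were 116, 93, 85 and 64 at 6 weeks and 40, 30, 44 and 42 at 12 weeks. All 6-week libraries, 61 to 116 counts, lay above all 12-week libraries, 24 to 56. The log2 change was -1.19 in control (SE 0.20, edgeR adjusted p = 1.54e-05) and -1.16, -0.83 and -0.90 at the rising concentrations.

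PCDHGC3 counts in control were 323, 305, 275 and 213 at 6 weeks and 158, 171, 215 and 177 at 12 weeks. The highest 12-week control library, 215, exceeded the lowest 6-week one, 213, in counts, although the groups did not overlap once scaled to CPM. The log2 change was -0.63 in control (SE 0.14, edgeR adjusted p = 0.00103), with -0.63, -0.61 and -0.65 under PFOS. PCDHGC3 held 58.0% of the PCDHG counts at 6 weeks and 57.1% at 12 weeks, so its share moved little while the sum fell.

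Other PCDHG members were called in some treatments. PCDHGA11 counts in control were 51.6, 45.2, 39.6 and 47.5 at 6 weeks and 21.9, 20.2, 21.02 and 27.2 at 12 weeks, with no overlap. Its log2 change was -1.03 (SE 0.19, edgeR adjusted p = 6.03e-05) in control and -0.48 at 0.1 µM (adjusted p = 0.0405), a call that was lost without vial 2, 3 or 4. PCDHGA10 was -0.90 in control, -1.58 at 0.1 µM and -0.89 at 1 µM, and the control call was lost without vial 2 (adjusted p = 0.206) or 3 (0.0718). At 1 µM it was lost without vial 1 (0.0896) or 4 (0.184). PCDHGB5 fell by 1.90 on the log2 scale at 1 µM, which was lost without vial 2 or 3. PCDHGB7 and PCDH11X were not called in any treatment.

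PCDH18 was the only member called higher. Its counts in control were 10, 3, 4 and 4 at 6 weeks and 21, 16, 14 and 15 at 12 weeks. The groups did not overlap, at counts where few reads decide the value. The log2 change was 1.63 in control (SE 0.42, edgeR adjusted p = 0.00226) and 1.11 at 0.01 µM (adjusted p = 0.0322), a call that was lost without vial 2 or 3. At 0.1 and 1 µM it was 0.82 and 0.66 and was not called.

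PCDH7 in control was 134, 65, 164 and 104 counts at 6 weeks and 28, 45, 89 and 77 at 12 weeks. The groups overlapped, and the log2 change of -0.96 was not called (SE 0.41, edgeR adjusted p = 0.0647). It was called with the vial as replicate block (-0.99, adjusted p = 0.0080) and without replicate 3 of the 12-week control (-1.22, adjusted p = 0.0386), and either setting gave 7 called members in control.

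**Figure D3:**
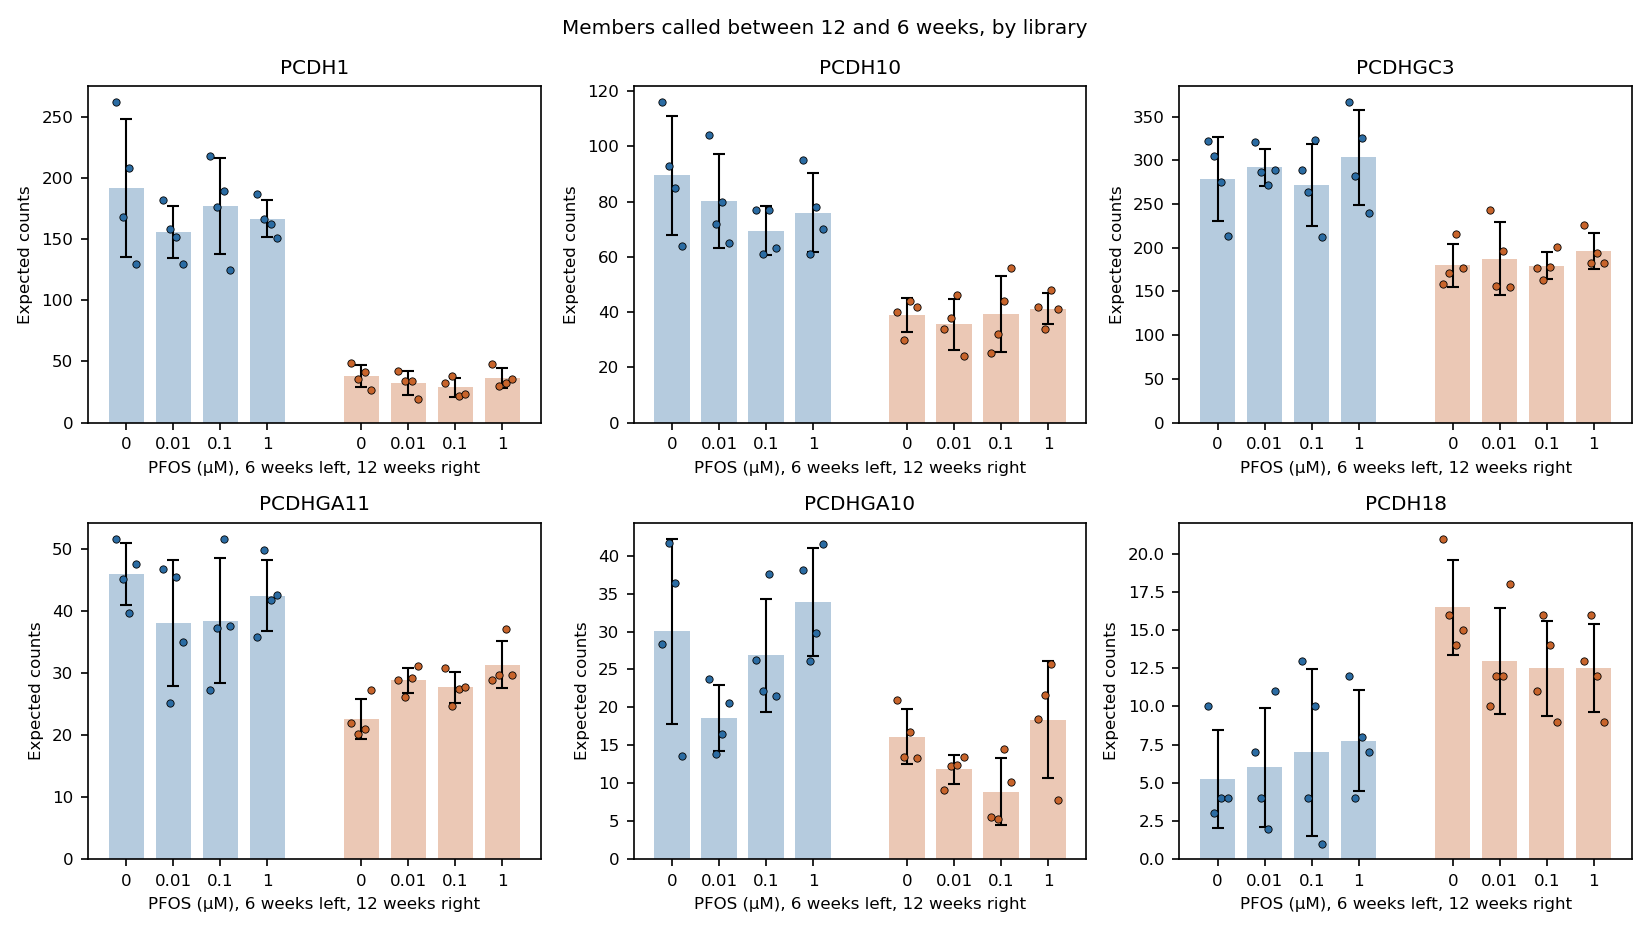
Expected counts of 6 members called between 12 and 6 weeks in each library (points), with the group mean (bar) and SD (whisker), against PFOS concentration in µM at 6 weeks (blue) and 12 weeks (orange). PCDH1 at 12 weeks, 19 to 49 counts, lies below all its 6-week values, and PCDH18 is the only panel with higher values at 12 weeks.

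The comparison of PFOS with control asked whether exposure changed protocadherins at a given time. The 3 comparisons of a time share their control libraries. With edgeR, 10 members were tested at 6 weeks and 11 at 12 weeks, and 0 members were called in any of the 6 comparisons. Of all genes, 0%, 4.24% and 0.28% were called at 6 weeks at 0.01, 0.1 and 1 µM, and 0%, 1.07% and 0.22% at 12 weeks. At an unadjusted p under 0.05 the members numbered 1, 1 and 0 at 6 weeks and 1, 2 and 1 at 12 weeks, against 9.6%, 20.8%, 13.7%, 8.48%, 15.4% and 8.75% of all genes. DESeq2, on 16 or on 8 libraries, called 1 member, at 0.1 µM and 12 weeks.

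That member was PCDHGC4. Its counts at 12 weeks were 51.7, 38.0, 31.4 and 42.6 in control. They were 10.2, 15.2, 25.03 and 22.6 at 0.01 µM and 12.7, 15.0, 29.1 and 17.7 at 0.1 µM, and 19.6, 31.8, 36.2 and 43.7 at 1 µM. The 0.01 and 0.1 µM libraries all lay below the 4 control libraries, while the 1 µM libraries overlapped them. PCDHGC4 was the 1 member without overlap in each of these comparisons, where 2.82% and 8.47% of all genes did not overlap. At 6 weeks 0 members were without overlap, against 3.93%, 12.2% and 6.79% of all genes.

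The log2 difference of PCDHGC4 from control at 12 weeks was -1.16 at 0.01 µM (SE 0.29, edgeR adjusted p = 0.472), -1.12 at 0.1 µM (SE 0.28, adjusted p = 0.0555) and -0.32 at 1 µM (adjusted p = 0.745). The value at 0.1 µM was called with the vial as replicate block (-1.15, adjusted p = 0.0398), without the filter on low counts (0.0425) and by DESeq2 on 16 libraries (0.0265), but in none of the 4 fits that left out 1 vial (0.0976 to 0.292). As a share of the PCDHG counts, PCDHGC4 held 12.7% ± 3.03 (SD, n = 4) in the 12-week control, 5.77% ± 2.30 at 0.01 µM, 6.05% ± 2.17 at 0.1 µM and 9.52% ± 2.91 at 1 µM. The PCDHG sum at 12 weeks differed from control by -1.9e-06 (SE 0.082) at 0.01 µM and -0.079 (SE 0.082) at 0.1 µM in edgeR. PCDHGC4 shares exons with the other PCDHG members, and 96.9% of its values were not whole numbers. The part of the division of reads among members in its difference was not tested.

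At 6 weeks the PCDHGC4 counts were 41.7, 54.8, 35.6 and 60.1 in control and 90.4, 83.0, 40.6 and 74.5 at 0.1 µM. These groups overlapped. Between times, PCDHGC4 was -0.23 in control (edgeR adjusted p = 0.582), -1.32 at 0.01 µM (0.00316), -1.95 at 0.1 µM (2.2e-05) and -0.73 at 1 µM (0.0745). The interaction of concentration with time, which tests whether these differ, was -1.72 at 0.1 µM with an adjusted p of 0.09 and was not called. No member was called for an interaction with edgeR, where 0%, 0.208% and 0.123% of all genes were, and 2, 2 and 1 members had an unadjusted p under 0.05, against 7.48%, 14.5% and 12.1% of all genes.

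Other members with an unadjusted p under 0.05 missed the threshold after adjustment in edgeR. PCDHGA10 was -0.68 at 0.01 µM and 6 weeks (adjusted p = 0.465) and -0.82 at 0.1 µM and 12 weeks (0.283). PCDH10 was -0.35 at 0.1 µM and 6 weeks (0.239). PCDHGA11 was 0.47 at 1 µM and 12 weeks (0.435), and its 4 libraries, 28.9, 29.7, 37.1 and 29.8 counts, lay above the 4 control libraries, where 6.53% of all genes did not overlap. No cluster sum was called against control, with the lowest adjusted p at 0.588 in the exact permutation test, although 4 against 4 libraries cannot give an unadjusted p under 0.0286.

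**Figure D4:**
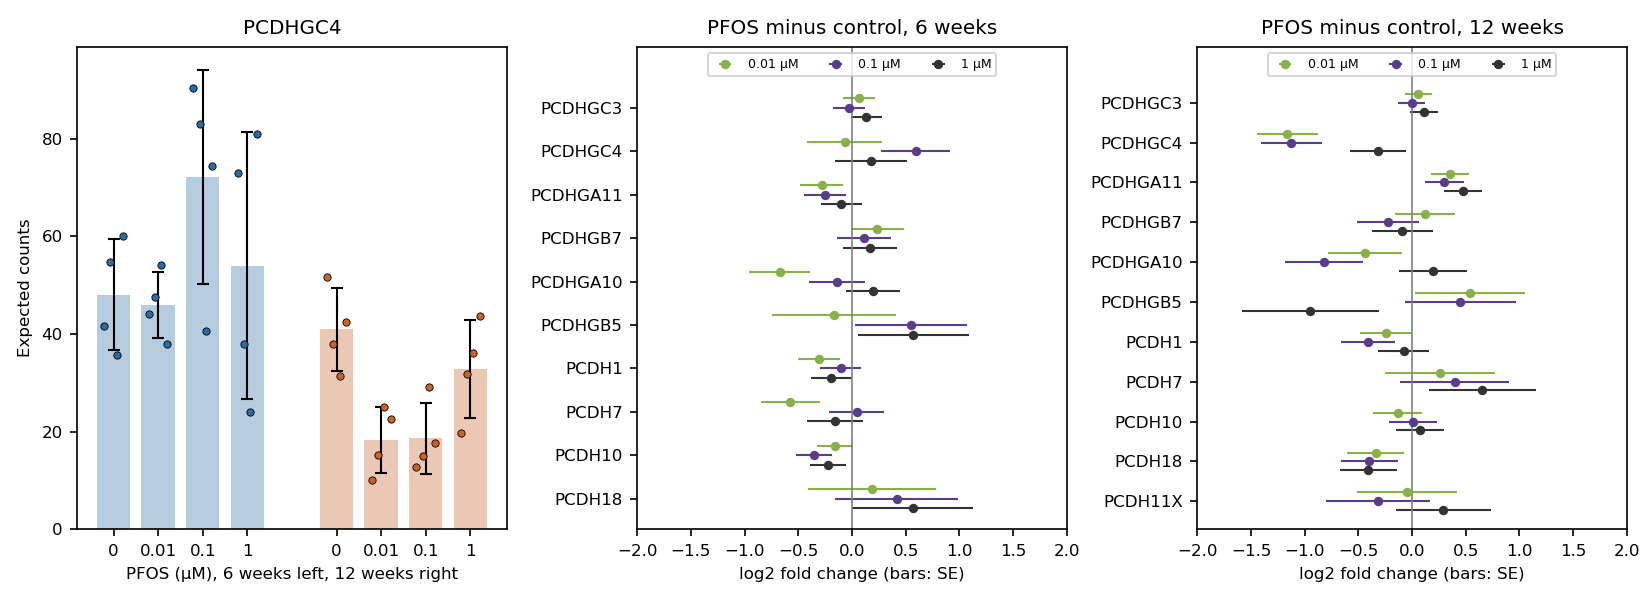
Left, expected counts of PCDHGC4 in each library (points) with the group mean (bar) and SD (whisker) against PFOS concentration in µM at 6 weeks (blue) and 12 weeks (orange). Middle and right, the log2 fold change of each tested member, PFOS minus control, at 6 and 12 weeks, with SE bars, where PCDHGC4 at 12 weeks stands at -1.16 and -1.12 for 0.01 and 0.1 µM.

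The vials were compared because promoter choice in clustered protocadherins is kept in daughter cells, so that separately frozen vials could differ. At 6 weeks 4 of the 10 tested members differed among vials in edgeR, against 1.8% of all genes, and at 12 weeks 1 of 11 did, against 0.369%. The 6-week members were PCDH1, PCDH7, PCDH10 and PCDHGC3, of which PCDHGC3 alone is clustered.

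PCDH7 differed at both times. At 12 weeks it was 28, 29, 29 and 57 counts in the vial 1 libraries of control, 0.01, 0.1 and 1 µM, and 89, 95, 111 and 167 in those of vial 3. Vial 1 lay below vial 3 in each treatment. The range over the vials was 1.67 on the log2 scale (edgeR adjusted p = 0.000558), and at 6 weeks it was 0.82 (0.00158). PCDH1 had a range of 0.64 at 6 weeks (0.00116), with vial 1 highest and vial 4 lowest, PCDH10 of 0.56 (0.0331) and PCDHGC3 of 0.44 (0.0255).

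**Figure D5:**
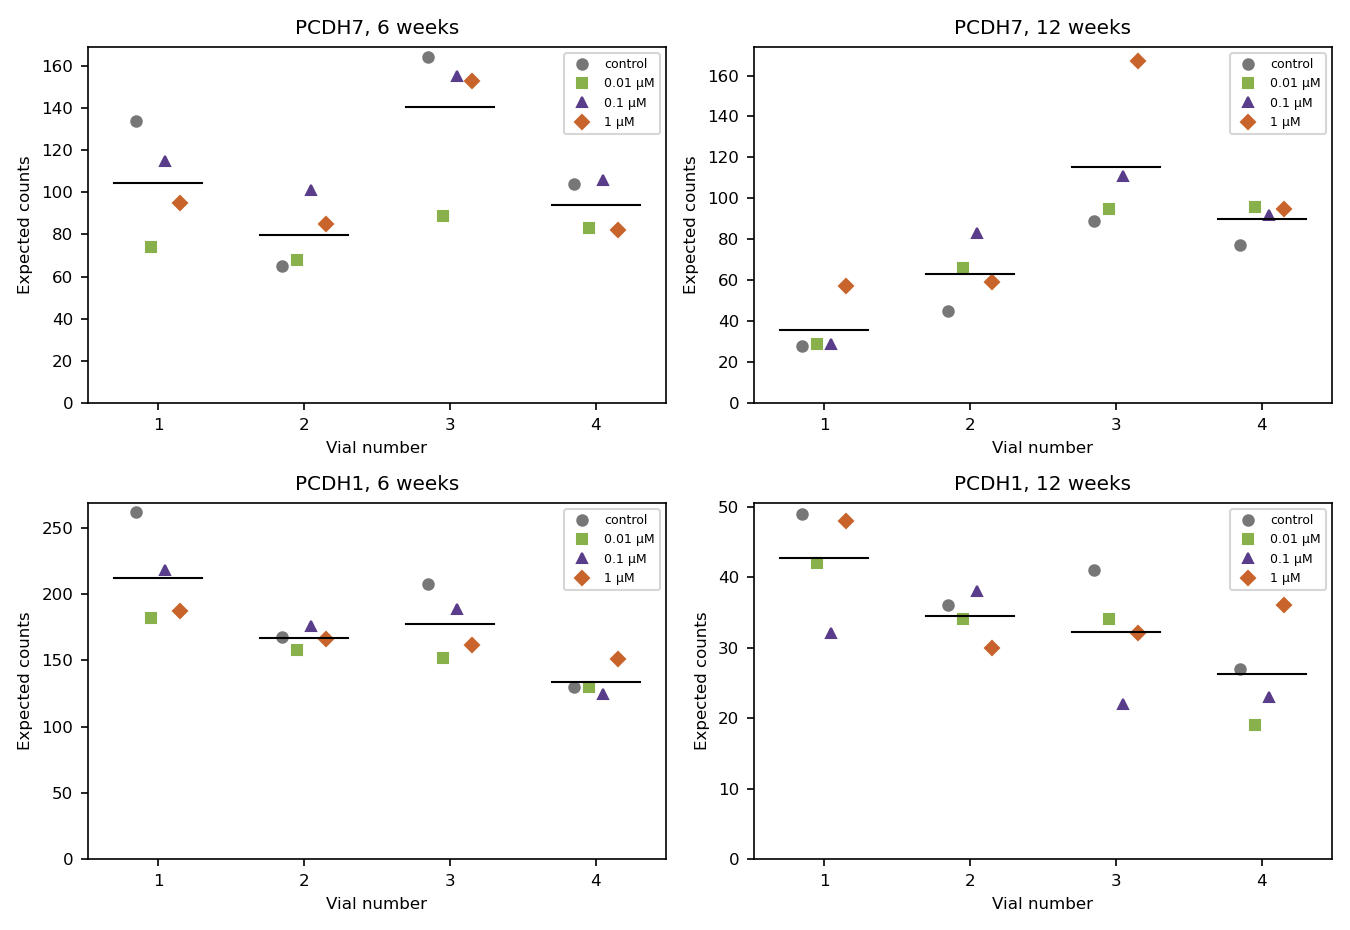
Expected counts of PCDH7 and PCDH1 by vial number at 6 and 12 weeks, with a symbol for each treatment and a line at the vial mean. PCDH7 at 12 weeks is 28 to 57 counts in vial 1 and 89 to 167 in vial 3.

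Genes known to act on the clusters were examined as a list of 17, all tested. Between 12 and 6 weeks, 9, 7, 9 and 9 of them were called higher and 1, 1, 0 and 0 lower in control and at 0.01, 0.1 and 1 µM, with no change of 2-fold. Of all genes, 17.3%, 21.4%, 19.7% and 14.2% were called higher and 19.3%, 21.3%, 20.6% and 15.9% lower. The list's median log2 change was 0.11, 0.06, 0.13 and 0.13. CTCF, the DNA-binding factor of these promoters, was 0.37, 0.38, 0.40 and 0.25 higher on the log2 scale. The cohesin subunit STAG1 was 0.44, 0.64, 0.62 and 0.36 higher, and RAD21, SMC3 and STAG2 were 0.14 to 0.33 higher. The chromatin silencer SMCHD1 was 0.11 to 0.17 higher, and DNMT3A, a DNA methyltransferase, was lower in control (-0.18) and at 0.01 µM (-0.23). In the PFOS comparisons 0 of the 17 were called by edgeR.

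Partners of protocadherin adhesion and signalling formed a second list, of which 19 of 21 genes were tested. Over time 3, 7, 6 and 6 were called higher and 5, 5, 4 and 4 lower, where 14.2% to 21.4% of all genes were called higher and 15.9% to 21.3% lower. No difference of the list from other genes was tested, and the list's median log2 change was 0.01, 0.01, 0.00 and 0.02. N-cadherin (CDH2) was -0.35, -0.27, -0.23 and -0.25. ADAM10, a protease that cleaves cadherins, was -0.22 to -0.27, and the WAVE complex subunit BRK1 was -0.20 to -0.27. AXIN1, SET and the WAVE subunit WASF2 were 0.12 to 0.24 higher in the 4 treatments. In the PFOS comparisons 0 of the 19 were called by edgeR.

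Other signals moved with time beside these results. The granulosa marker sum was 3469 to 4010 counts at 6 weeks and 3014 to 3474 at 12 weeks, mostly GATA4 with a mean of 2388 counts. Of 8 granulosa markers tested, 2, 4, 2 and 3 were called lower and 0, 0, 0 and 1 higher. Of all genes, 15.9% to 21.3% were called lower and 14.2% to 21.4% higher. The sum of markers of other cell types was 5882 to 6964 and 8341 to 9968, mostly TUBB3, a neuronal tubulin with a mean of 396 TPM that was called higher in all 4 treatments. The other markers of that list mainly went the other way. Of its 7 tested genes, 2, 3, 4 and 4 were called lower and 2, 1, 1 and 1 higher, and the median log2 change was -0.12, -0.48, -0.63 and -0.46. PECAM1, an endothelial marker, and CDH1, an epithelial one, were called lower in all 4 treatments. In bulk RNA, fewer cells of a type and less RNA per cell cannot be told apart, and the part of these sums in the protocadherin differences was not tested.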

How the data were processed

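Libraries were poly(A)-selected, stranded (dUTP) and sequenced on DNBSEQ. Per the labels and methods, the authors aligned reads with HISAT2 2.0.4 and Bowtie2 2.2.5 to GRCh38.p14 and estimated expression with RSEM 1.2.8. The deposited tables hold expected counts and TPM, both made by the authors. Expected counts divide reads that match several genes, so members that share exons take each other's reads. TPM was used for levels only, and a table of normalized counts was not used.

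Expected counts were rounded and tested with edgeR 4.0.16 (TMM, filterByExpr, robust quasi-likelihood F test, Benjamini-Hochberg adjustment over all genes tested, R 4.3.3). Each time was fitted on its 16 libraries, and the times were compared on all 32. Cluster sums were compared with exact two-sided permutation tests of log2(CPM + 1), adjusted over the sums and comparisons. Scripts were tested on simulated data. Named were all members called in any comparison and the 3 highest by TPM in each of the PCDHA, PCDHB, PCDHG and single groups. Some of the listed genes that passed were also named. Members and lists were chosen with earlier results of these data known.

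Replicate numbers pair libraries because the labels say each vial's flask was divided among treatments. Same-numbered libraries had mean correlations of deviations of -0.16 to 0.15. Alternatives were DESeq2 1.42.0, RLE scaling, other filters, fewer libraries, the replicate block and leaving out vials.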

Additional observations from a re-analysis of the deposited data

Results flagged for a closer look

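Within groups of 4, single libraries stood apart by Dixon's test in 5 of 112 groups tested, and chance gives about 1 in 20. PCDH11X in replicate 3 of 1 µM at 12 weeks was lowest, at 7.3 counts against 9.62, 9.79 and 9.97. PCDH18 in replicate 1 of the 6-week control was highest, at 10 counts against 3, 4 and 4. PCDHGA11 in replicate 3 of 1 µM at 12 weeks was highest, at 37.06 counts against 28.94, 29.69 and 29.75. PCDHGB5 in replicate 1 of 0.1 µM at 12 weeks was highest, at 18.6 counts against 9.21, 10.04 and 10.07. The PCDHB sum in replicate 2 of the 6-week control was lowest, at 10 counts against 15, 16 and 16.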

How the results depend on the processing

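Several member calls depended on the setting. Across all settings, a member call was lost or had no adjusted p 14 times. Named next are the losses with 1 vial left out, and the rest came under other settings. Between times, leaving out 1 vial removed calls for PCDHGA10 in control and at 1 µM and for PCDHGA11 at 0.1 µM. The same held for PCDHGB5 at 1 µM and PCDH18 at 0.01 µM. PCDHGC4 between times at 1 µM was not called with all vials, and its edgeR adjusted p ranged from 0.00656 to 0.467 with 1 vial left out. PCDHGC4 at 0.1 µM and 12 weeks gave 1 called member with no filter, with the replicate block, and with DESeq2 on 16 or on 8 libraries, against 0 otherwise. The interaction at 0.1 µM gave 0 to 1 called members when a vial was left out, with PCDHGC4 called without vial 3 (-2.19, adjusted p = 0.0142). The replicate block also gave a call for PCDH7 between times in control (adjusted p = 0.0080) and changed no other call. In edgeR on summed entries, the PCDHG sum passed between times at -0.56, -0.55, -0.69 and -0.61 and the PCDHA sum in control at -1.37. Sums near 0 that were never called turned sign. With a vial left out, PCDHA at 0.1 µM ranged from -0.0246 to 0.0948 at 6 weeks and from -0.0916 to 0.299 at 12 weeks. PCDHB at 12 weeks ranged from -0.0239 to 0.253 at 0.01 µM, from -0.161 to 0.0633 at 0.1 µM and from -0.118 to 0.157 at 1 µM. PCDHG at 0.01 µM ranged from -0.0281 to 0.0336 at 6 weeks and from -0.0842 to 0.0329 at 12 weeks. Between times PCDHA at 1 µM ranged from -0.217 to 0.0151, and PCDHB from -0.315 to 0.0224 in control and from -0.0686 to 0.147 at 0.01 µM. With summed TPM, PCDHB was -0.000269 at 1 µM and 12 weeks and -0.0110 between times at 0.01 µM. With edgeR, PCDHB at 1 µM and 12 weeks was -0.00923 and PCDHG at 0.01 µM and 6 weeks -0.00363. The cause was not tested. Low counts, at most 21 per library, limit the PCDHA and PCDHB sums and PCDH18.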
